A study of Mus musculus with 7 samples.

Results

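The comparison set p53-/- Dnmt1-/- cells harvested 2 weeks after trichostatin A (TSA) was removed against p53-/- Dnmt1-/- cells that were never treated. It covered every probe set of the array other than the manufacturer's controls, 22626 of 22690. Each side was 1 array, so 2 of the 7 arrays of the series were compared. The remaining arrays held p53-/- Dnmt1-/- cells at 24 h and 48 h of TSA and p53-/- cells that were untreated or had 24 h or 48 h of TSA. Every cell population was described as mouse embryonic fibroblasts (MEF), and all of them, controls included, lacked p53. Neither the TSA dose nor the length of the exposure before its removal is stated in the sources used here. No source names separate cultures or clones, and no group was repeated, so every difference below is between 2 libraries and has no replicate check.

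Dnmt1 is the enzyme that copies DNA methylation onto the new strand after replication, and without it methylation is lost as cells divide. Methylation at promoters is a mark of stably silenced genes, with germline and imprinted genes as the classic cases. TSA inhibits histone deacetylases, and the acetylated histones that build up are a second, quickly reversible layer of control over silenced genes. Cells that have lost Dnmt1 and then had TSA and its removal address whether an expression state reached under TSA is kept once the inhibitor is gone.

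Values are linear array signals, and differences are log2(signal + 11.4), after removal minus untreated, where the offset of 11.4 limits the ratios of dim probe sets and so understates the change of dim genes. A gene was represented by its brightest probe set, and 9390 features passed a signal filter, of which 8298 were named genes and 1092 were probe sets without a single name. The word level below means signal and is compared only within a gene. In bulk RNA of this kind, fewer cells of a type and less RNA per cell cannot be told apart.

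Dnmt1 itself read 123.2 in the after-removal array and 206.5 in the untreated array, with 74.0 and 109.5 at 24 h and 48 h of TSA, against 308.2 to 695.6 on the 3 p53-/- arrays. All 4 Dnmt1-/- arrays were therefore below all 3 arrays with Dnmt1. Its second probe set read 105.3 after removal and 101.0 untreated. No source used here says whether these probes lie inside the deleted part. Trp53, which encodes p53, was not analysed here. As a check of the cell label, the p53-/- Dnmt1-/- cells carried simple-epithelial keratins that the p53-/- fibroblasts did not. Krt8 read 2072.9 after removal and 2081.3 untreated, against 36.9 to 58.3 on the p53-/- arrays. The fibrillar collagen gene Col1a2 read 93.9 after removal and 354.6 untreated, against 5510.7 to 6171.0 on the p53-/- arrays. By these markers the compared cells stood apart from the p53-/- fibroblasts before and after TSA, and they are called here by their genotype.

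The after-removal array stood apart from every other array, which bears on all that follows. It lay at least 2-fold above each of the 6 others for 168 features (1.79%) and at least 2-fold below each of them for 272 (2.90%). The other arrays were beyond the rest in this way for 2 to 55 features upward and 2 to 28 downward. Among features that varied by no more than 1.5-fold over the 6 other arrays, 151 of 1579 (9.56%) were at least 2-fold below their mean after removal and 34 were above it. For the other arrays the same count gave at most 9 features above and 7 below. The median signal was 41.9 after removal and 46.1 untreated, and the after-removal median was the lowest of all 7 arrays. The 3' probe set for 18S ribosomal RNA read 93.6 after removal and 688.1 untreated, below all 6 others. The 3' to 5' signal ratio of the beta-actin control was 1.23 after removal and 1.14 untreated, and the range on the other arrays was 1.06 to 1.15. For the Gapdh control this ratio was 0.842 after removal and 0.834 untreated, within 0.834 to 0.906 over the 6 other arrays. Of the spiked-in controls, BioDn-5 read 381.3 after removal and 129.0 to 180.2 on the 6 other arrays. BioDn-3 went the other way, at 616.4 after removal and 846.0 to 1059.3 on the 6 others. Some spiked-in controls were level, with r2-Ec-bioD-5 at 775.9 after removal and 770.2 untreated, and CreX-5 at 1632.4 and 1608.5. The part of RNA quality, hybridisation and culture in the differences below was not tested.

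**Figure D1:**
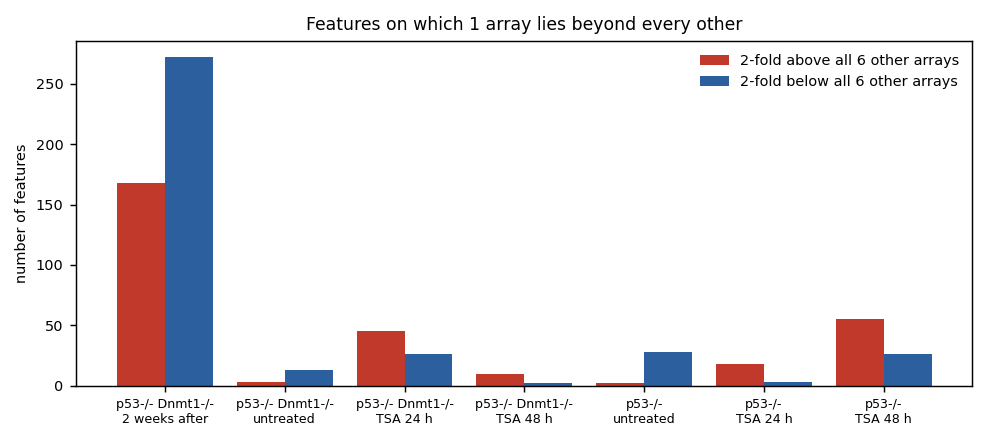
Number of features (vertical axis) on which each array, named along the horizontal axis, lies at least 2-fold above (red) or below (blue) all 6 others. The array 2 weeks after TSA removal has 168 above and 272 below, and the next highest counts are 55 above and 28 below.

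After TSA removal, 437 features were at least 2-fold higher than in untreated cells (4.65%) and 908 were at least 2-fold lower (9.67%). Of these, 361 and 813 were named genes. At 4-fold, 17 features were higher and 61 lower, and at 8-fold 2 were higher and 2 lower. The median difference over all features was -0.13. When the differences were centred on that median the counts were 641 higher and 664 lower, and after a loess correction on brightness they were 656 higher and 567 lower, so the excess of lower features depended on the scaling. The correlation of log2 values between the 2 arrays was 0.93 across 9390 features, which are not independent replicates. The untreated array correlated at 0.93 with the 24 h TSA array and at 0.96 with the 48 h TSA array.

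Dim features carried more of the differences. In the dimmest of 4 equal bins, ranked on the 5 arrays that were not compared, 7.28% were higher and 15.6% lower by 2-fold. In the brightest bin these shares were 1.11% and 6.69%. Further probe sets of the same genes gave a check of the probes, though not of the cultures. For genes 2-fold higher, 233 of 276 other probe sets (84.4%) differed in the same direction, and for genes 2-fold lower 236 of 292 did (80.8%). Over all named genes the share was 67.5%. The filter on dim features also bears on the counts, since a feature that passed it through 1 of the 2 compared arrays alone was bound to differ. There were 107 that passed only through the after-removal array, 48 of them 2-fold higher, and 110 that passed only through the untreated array, 61 of them 2-fold lower. Without both sets 389 features were higher and 847 lower.

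**Figure D2:**
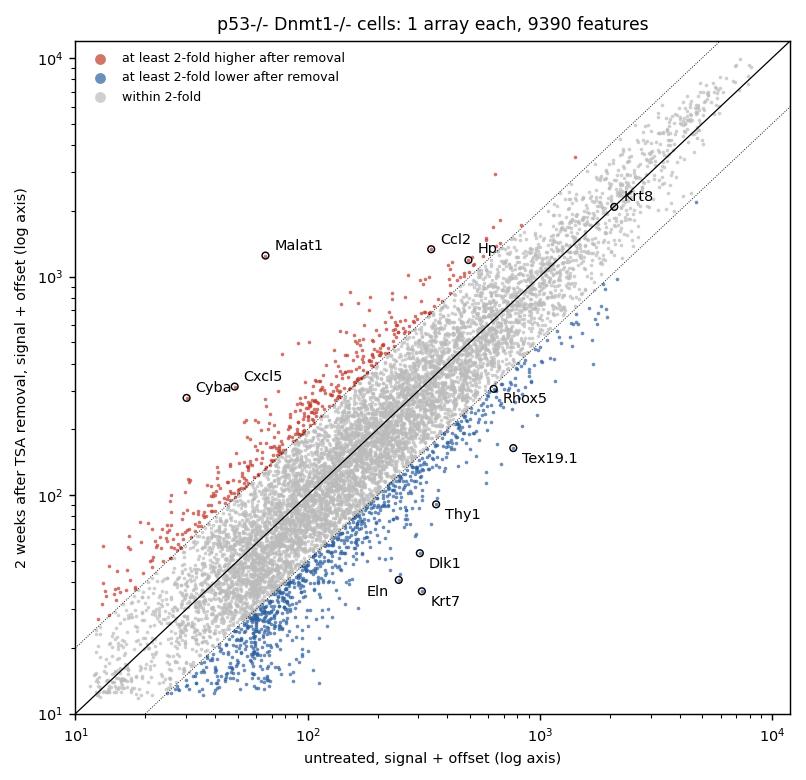
Signal plus offset of 9390 features 2 weeks after TSA removal (vertical, log axis) against untreated (horizontal, log axis), 1 array each. The solid line is equality and the dotted lines are 2-fold; 437 features lie above the upper line (red), 908 below the lower (blue), and Krt8 lies on the line of equality.

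The gene furthest above its untreated level was Malat1, an abundant nuclear noncoding RNA. It read 1236.0 after removal and 54.4 untreated, with 121.2 and 145.3 at 24 h and 48 h of TSA and 135.8 to 650.1 on the p53-/- arrays. The after-removal value was above all 6 others. Its 3 other probe sets differed in the same direction, by 0.61 to 3.95 on the log2 scale. Malat1 was the only feature that passed limma's moderated test fitted over all 7 arrays (difference 4.24, SE 0.35, adjusted p = 0.0254 by Benjamini-Hochberg), or 0.0106% of those tested. That fit rests on 2 residual degrees of freedom, from the 24 h and 48 h arrays of each genotype, and assumes that the lone arrays vary like those pairs. It made 0 calls with no filter, with quantile normalization and without the intensity trend. No other gene named below passed it, so their differences are given as sizes.

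Cyba, a subunit of the NADPH oxidase, read 267.0 after removal and 18.7 untreated, with 4.4 to 32.1 under TSA and 729.8 to 925.7 on the p53-/- arrays. Its after-removal level thus lay between the other p53-/- Dnmt1-/- arrays and the p53-/- arrays. The chemokine gene Cxcl5 read 302.2 after removal and 37.1 untreated, with 28.8 to 49.6 under TSA and 77.8 to 426.5 on the p53-/- arrays. Ccl2, which attracts monocytes, read 1322.5 after removal and 329.1 untreated, 718.6 and 888.2 at 24 h and 48 h of TSA, and 29.4 to 58.5 on the p53-/- arrays. Ccl2 was the only one of these 3 genes whose after-removal value exceeded all 6 others. The remaining members of the 15 largest higher genes were Dhx36, an RNA helicase that unwinds G-quadruplexes, Rpgrip1, Zfp148, Ssb (the La RNA-binding protein), Cip2a, Gsdme, Shoc2, Mga, Esf1, Lcn2 and Sp1. Of the 15, all lay above the 3 other p53-/- Dnmt1-/- arrays, 13 lay above all 6 other arrays, and 10 did so by 2-fold. Cip2a and Lcn2 passed the filter only through the after-removal array. The other probe set of Gsdme differed by 0.29, that of Shoc2 by 0.38 and that of Dhx36 by 0.68. The 2-fold difference of each of these genes thus rests on 1 probe set. Other probe sets of Zfp148 differed by 0.60 to 1.13 and those of Ssb by 0.42 to 1.69, and that of Esf1 differed by 1.07. Rpgrip1 read 2923.7 after removal and 630.3 untreated, and the transcription factor gene Sp1 read 1003.3 and 260.2.

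Krt7, a keratin of simple epithelia and mesothelium, was furthest below its untreated level. It read 24.9 after removal and 299.0 untreated (log2 difference -3.10), with 201.1 and 659.7 at 24 h and 48 h of TSA and 1.7 to 16.3 on the p53-/- arrays. The after-removal level was nearer to the p53-/- cells than to the other p53-/- Dnmt1-/- arrays. Spock2, which encodes an extracellular proteoglycan, read 2.4 after removal and 100.2 untreated (-3.02). Eln, which encodes elastin, read 29.5 after removal and 235.4 untreated (-2.59), with 104.5 to 174.4 under TSA and 223.6 to 419.7 on the p53-/- arrays, so that the after-removal array lay below all others. Aph1a, a subunit of gamma-secretase, had 127.3 after removal and 666.6 untreated (-2.29), against 663.8 to 858.5 on the 5 other arrays. Its other probe sets differed by -0.57 and -0.14, and the median over its probe sets was -0.57, so the 2-fold difference rests on 1 probe set.

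The 15 largest lower genes showed 3 patterns across the other arrays. Slc47a1, Cldn3, Tex19.1, Lgals7 and Ano1 were like Krt7, lit in p53-/- Dnmt1-/- cells and dim in p53-/- cells. Claudin 3, a tight-junction protein, had its transcript at 33.9 after removal and 215.7 untreated, and its 3 other probe sets differed by -2.40 to -1.64. Aqp1, Mgp and Dlk1 were brighter in p53-/- cells than in p53-/- Dnmt1-/- cells, though Mgp and Dlk1 were not dim in untreated p53-/- Dnmt1-/- cells. Mgp, an inhibitor of calcification, read 116.0 after removal and 576.5 untreated, against 3545.5 to 4119.1 on the p53-/- arrays. Ubtd1, Pcp4l1 and Lgals3bp, like Eln and Aph1a, were present in both genotypes, and so was Spock2 in p53-/- cells under TSA. All 15 lay below the 3 other p53-/- Dnmt1-/- arrays, 9 lay below all 6 others, and 8 did so by 2-fold. In all, 241 named genes that were higher and 389 that were lower met the same brightness and probe-set rule.

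Germline genes are textbook targets of silencing by promoter methylation. In these data 3 of 9 measured germline genes were at least 2-fold lower after removal and none were higher, against 9.67% and 4.65% of all features. The list median was 0.06, and -0.03 with no filter on dim genes. The proximal promoters of 3 of them are shown because Dnmt1 acts on CG sites, which are in capitals. They run from 250 bases before to 50 after the RefSeq transcription start, build GRCm38.p6, 5' to 3' on the gene's strand.
Tex19.1 (chr11:121145893-121146192, plus strand): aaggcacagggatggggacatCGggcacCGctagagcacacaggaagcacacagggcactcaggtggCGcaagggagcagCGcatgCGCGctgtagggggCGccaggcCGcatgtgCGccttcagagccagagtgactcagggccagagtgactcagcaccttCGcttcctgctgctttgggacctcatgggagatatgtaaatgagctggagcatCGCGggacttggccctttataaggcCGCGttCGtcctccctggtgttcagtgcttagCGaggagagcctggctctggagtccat
Rhox5 (chrX:37754358-37754657, plus strand): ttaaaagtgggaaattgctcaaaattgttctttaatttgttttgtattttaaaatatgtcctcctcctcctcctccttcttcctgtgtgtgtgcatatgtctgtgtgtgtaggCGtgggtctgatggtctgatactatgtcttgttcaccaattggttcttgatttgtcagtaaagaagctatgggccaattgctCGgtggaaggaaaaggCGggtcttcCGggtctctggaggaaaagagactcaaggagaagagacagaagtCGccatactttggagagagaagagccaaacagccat
Tex101 (chr7:24672001-24672300, minus strand): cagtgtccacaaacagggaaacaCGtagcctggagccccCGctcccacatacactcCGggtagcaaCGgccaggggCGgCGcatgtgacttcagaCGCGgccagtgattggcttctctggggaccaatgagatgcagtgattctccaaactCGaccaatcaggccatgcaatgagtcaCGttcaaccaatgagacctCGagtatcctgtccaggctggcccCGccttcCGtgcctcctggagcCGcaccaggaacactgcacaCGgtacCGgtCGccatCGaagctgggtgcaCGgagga
The window of Tex19.1 held 16 CG, that of Rhox5 held 5 and that of Tex101 held 19. CG, which reads the same on both strands, occurred at least once in 94.6% of the 32851 promoters of that table. Among measured genes the median was 22 CG per window. Methylation was not measured.

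Tex19.1, a germ-cell gene that restrains retrotransposons in mice, read 152.7 after removal and 757.2 untreated (log2 difference -2.23). It read 746.3 and 723.7 at 24 h and 48 h of TSA and 2.4 to 12.0 on the p53-/- arrays. It was near-constant over the other p53-/- Dnmt1-/- arrays and, after removal, was lower than on these but still above the p53-/- arrays. Rhox5, an X-linked homeobox gene of testis and placenta, read 295.0 after removal and 621.3 untreated (-1.05). Taf7l, which encodes a testis form of a TFIID subunit, read 14.8 after removal and 55.9 untreated (-1.36). Other germline genes did not share this difference. Piwil2, a PIWI protein of the piRNA pathway, read 128.9 after removal and 141.3 untreated. Asz1, of the same pathway, read 576.9 after removal and 296.0 untreated (0.94), and Tex14 read 150.1 and 85.7 (0.73).

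The genes that were higher while TSA was present had a median level close to untreated 2 weeks after its removal. In p53-/- Dnmt1-/- cells 176 features were at least 2-fold higher at both 24 h and 48 h than untreated. Their median signal was 34.3 untreated, 157 at 24 h, 123 at 48 h and 34.6 after removal, so their median difference from untreated was 1.58, 1.33 and 0.01 on the log2 scale. After removal 138 of the 176 were within 2-fold of untreated, 26 were at least 2-fold higher and 12 were at least 2-fold lower. Over all features 4.65% were higher and 9.67% lower. For the 32 features lower at both times the median signal was 202 untreated, 59.3 at 24 h, 70.5 at 48 h and 154 after removal. Their median differences were -1.48, -1.24 and -0.13, and after removal 24 were within 2-fold, 2 were higher and 6 were lower. All of these differences share the untreated array, so noise on that array enters each of them.

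Tex101, a testis-specific surface protein gene whose promoter is shown above, read 4.1 untreated, 212.8 at 24 h, 253.8 at 48 h and 4.8 after removal. Nts, the neurotensin precursor gene, read 18.2 untreated, 331.7 at 24 h, 218.7 at 48 h and 22.3 after removal. Prph, which encodes the neuronal intermediate filament peripherin, read 31.8 untreated, 695.7 at 24 h, 157.2 at 48 h and 25 after removal. For these 3 genes the after-removal array was as dim as the untreated array. Usp18, an interferon-induced protease gene, read 21.4 untreated, 156.4 and 165.4 under TSA and 16 after removal. The insulin-like growth factor binding protein gene Igfbp2 read 403.9 untreated, 1789.1 and 2194.9 under TSA and 314.0 after removal. Cardiac actin, Actc1, read 81.5 untreated, 344.7 and 330.9 under TSA and 53.1 after removal.

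Some TSA-responsive genes were not at the untreated level after removal. Tcn2, a vitamin B12 carrier gene, read 5.7 untreated, 163.7 and 164.4 under TSA and 29.3 after removal, a difference of 1.25 from untreated. Crabp2, which encodes a retinoic acid binding protein, read 6.7 untreated, 279.3 and 100.3 under TSA and 26.6 after removal (1.07). Both after-removal signals were below 30, where dim probe sets vary most. Des, which encodes desmin, read 127.3 untreated, 557.9 and 299.9 under TSA and 43.9 after removal (-1.33), with its other probe set at -0.88. Of genes lower under TSA, Syn3 (synapsin III) read 51.0 untreated, 5.1 and 5.8 under TSA and 7.2 after removal (-1.75). Syn3 passed the filter only through the untreated array, so it was bound to read lower on the others. Hp, which encodes the acute-phase protein haptoglobin, read 481.3 untreated, 110.7 and 151.3 under TSA and 1178.7 after removal (1.27). Desmin was thus below, and haptoglobin above, all 3 other p53-/- Dnmt1-/- arrays.

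**Figure D3:**
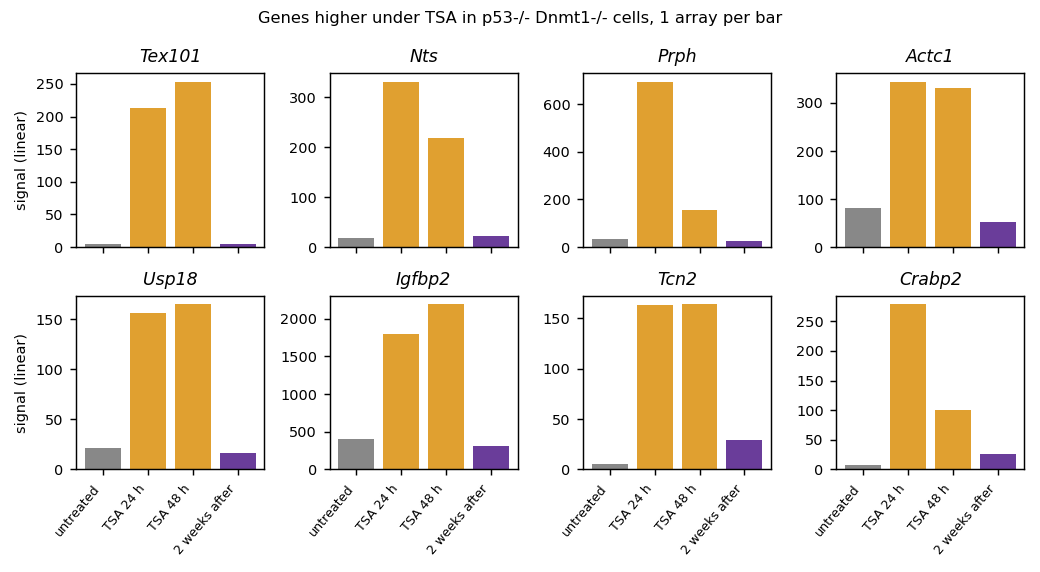
Signal (vertical, linear axis from 0, scaled per gene) of 8 genes that were higher under TSA in p53-/- Dnmt1-/- cells, 1 array per bar, in the order untreated, TSA 24 h, TSA 48 h and 2 weeks after removal. Tex101 reads 4.8 after removal, close to untreated, and Tcn2 reads 29.3, above untreated and below both TSA arrays.

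Genes known from other systems to respond to histone deacetylase inhibitors showed no common direction. Of 26 measured genes known to be induced, 4 were 2-fold higher and 3 lower after removal, against 4.65% and 9.67% of all features. Their median was -0.21, against -0.13 over all features. These genes included Tgm2, transglutaminase 2, which read 668.1 after removal and 1763.5 untreated (-1.39). Gadd45a, a growth-arrest gene of the same list, read 95.3 and 39.3 (1.07). Cdkn1a, the p21 cell-cycle inhibitor gene, read 34.0 after removal and 61.1 untreated. None of 11 genes known to be repressed passed 2-fold. Another 4 groups of genes were chosen only on arrays outside the comparison. The 145 features higher with TSA in p53-/- cells had a median difference of -0.02. Among them 14 were higher and 14 lower, 9.66% each, against the 4.65% and 9.67% of all features. The 93 features lower with TSA in p53-/- cells had a median of 0.01, with 1 (1.08%) higher and 2 (2.15%) lower. Under quantile normalization these medians were 0.10 and -0.01.

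Genes that set the 2 genotypes apart differed less evenly. The 194 features at least 4-fold higher in p53-/- Dnmt1-/- than p53-/- cells under TSA, measured without either compared array, had a median difference of -0.35 after removal. Of these, 46 (23.7%) were at least 2-fold lower and 6 (3.09%) higher, against 9.67% and 4.65% of all features. The 46 included Krt7, Cldn3 and Tex19.1 above, the aldehyde dehydrogenase gene Aldh1a1 (27.9 after removal, 139.9 untreated) and Apoe, apolipoprotein E (168.2 and 536.4). The 236 features at least 4-fold lower in p53-/- Dnmt1-/- cells had a median of -0.07, with 17 (7.20%) higher and 27 (11.4%) lower. Malat1, Cyba and Cxcl5 were among the 17, and Dlk1, Aqp1, Mgp and Col1a2 among the 27.

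Of 16 measured mesothelial markers 5 were 2-fold lower and 11 were within 2-fold, against 9.67% of all features lower. All 16 lay below their untreated level, as did 57.9% of all features, and the median was -0.40 against -0.13 over all features. Mesothelin, Msln, read 224.9 after removal and 511.7 untreated (-1.15). Besides Krt7, the tight-junction gene Cldn15 read 82.4 after removal and 239.4 untreated, the retinoic acid synthesis gene Aldh1a2 read 115.7 and 287.7, and the Wnt agonist gene Rspo1 read 45.8 and 147.2. Upk3b, a uroplakin of the mesothelium, read 2337.1 after removal and 4130.1 untreated (-0.82), with its other probe set at -0.93. Of the other keratin genes in that list, Krt8 was level as given above, Krt18 read 2718.8 after removal and 2916.7 untreated, and Krt19 read 1836.7 and 2079.0. Of 15 epithelial markers 3 were 2-fold lower and none higher. They were Krt7, Cldn3 and Grhl2, a transcription factor gene of epithelia, which read 5.8 after removal and 80.4 untreated. Grhl2 read 49.9 and 37.8 at 24 h and 48 h of TSA and 21.4 to 41.4 on the p53-/- arrays. Its after-removal value was thus below every other array, those of the p53-/- cells included.

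Fibroblast markers and interstitial matrix genes had 2-fold differences in both directions, with more of them lower, as among all features (4.65% higher, 9.67% lower). Of 19 fibroblast markers 4 were 2-fold lower and 1 higher, with a median of -0.35 that was -0.13 after the loess correction. Of 34 interstitial matrix genes 9 were 2-fold lower and 2 higher, with a median of -0.39. Below their untreated level lay 13 of the 19 and 23 of the 34, against 57.9% of all features. Col1a2 read 93.9 after removal and 354.6 untreated (-1.80), and Col3a1, another fibrillar collagen gene, read 205.3 and 571.3 (-1.43). Their other probe sets differed by -0.91 and -1.02. Bgn, the proteoglycan biglycan, read 595.0 after removal and 1453.4 untreated (-1.27). Thy1, a surface glycoprotein of fibroblasts, read 79.3 after removal and 346.2 untreated (-1.98), with 827.8 and 1209.0 under TSA. Prrx1, a mesenchymal homeobox gene, was the fibroblast marker that was higher, at 136.3 after removal and 52.1 untreated, but its other measured probe sets disagreed in direction. Of 15 basement membrane genes 2 were 2-fold lower, Nid2 (66.0 after removal, 251.7 untreated) and Hspg2, which encodes perlecan (242.7 and 682.5, other probe set -0.53). Their list median was 0.08. Of 16 matrix proteases and inhibitors 2 were lower, a share near the 9.67% of all features, among them the membrane-bound collagenase gene Mmp14 at 203.6 after removal and 528.2 untreated.

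Markers of leukocytes, endothelium and red cells were dim. Of 12 macrophage markers 5 passed the filter, where Laptm5 read 18.4 after removal and 88.1 untreated. The leukocyte gene Ptprc read 6.2 after removal and 7.5 untreated. The endothelial markers Pecam1 and Cdh5 read 3.9 and 2.7 after removal, against 16.8 and 19.3 untreated. Of 3 measured endothelial markers 1 was 2-fold lower, Kdr. No erythroid marker passed the filter. Among 19 muscle and contractile genes 5 were 2-fold lower and none higher, against 9.67% and 4.65% of all features. The slow troponin gene Tnni1 was 1 of the 5, at 74.0 after removal and 252.6 untreated. The abundant smooth muscle actin gene Acta2 read 2547.8 after removal and 2738.6 untreated. Of 13 neuronal genes 2 were lower, Dpysl3 and Syn3, of which Syn3 passed the filter only through the untreated array, with a list median of -0.25 that was 0.16 after the loess correction. Of 8 adipocyte genes 1 was higher, the transcription factor gene Cebpd (215.6 after removal, 72.6 untreated, other probe set -0.10), and 1 was lower, the lipase gene Lipe.

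Interferon and antigen presentation genes had the lowest medians of the lists with at least 5 measured members. Of 26 interferon genes 8 were 2-fold lower and 1 higher, with a median of -0.69, against 9.67% and 4.65% of all features and a median of -0.13. Most were dim on both arrays. Ifit1, an antiviral RNA-binding protein gene, read 3.8 after removal and 46.6 untreated (-1.93), and Irf7, a regulator of interferon genes, read 17.9 and 62.2 (-1.33). The exception, Ifit2, read 15.6 after removal and 1.1 untreated, at the edge of what the array resolves. All 13 antigen presentation genes were below their untreated level, 3 of them by 2-fold, with a median of -0.74. Tap1, the peptide transporter gene, read 2.0 after removal and 56.7 untreated (-2.35). The bright members differed less: the class I heavy chain gene H2-K1 read 854.7 after removal and 1706.8 untreated (-0.99), and B2m, the class I light chain gene, read 859.1 and 1560.4 (-0.85).

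Chemokine and inflammatory genes differed in both directions. Of 22 measured, 4 were 2-fold higher and 3 lower, against 4.65% and 9.67% of all features. Lcn2 and 2 others passed the filter only through the after-removal array, and without them 3 of 19 were higher, 3 were lower and the median was -0.10 rather than 0.07. Ccl2, Cxcl5 and Lcn2 were described or named above, and the neutrophil chemokine gene Cxcl1 read 631.3 after removal and 283.4 untreated (1.12). Ccl5, a T-cell chemokine gene, read 4.1 after removal and 75 untreated, and Ccl8 read 7.3 and 83.0. Cxcl12, which guides cells through CXCR4, read 199.1 after removal and 430.7 untreated (-1.07). Of 13 complement and acute-phase genes 3 were higher (Hp, Lcn2 and C1s1) and 3 were lower, among them Apoe. Without Lcn2, for the same reason, 2 of 12 were higher. Lcn2, lipocalin 2, which binds bacterial siderophores, read 105.8 after removal and 19.6 untreated.

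**Figure D4:**
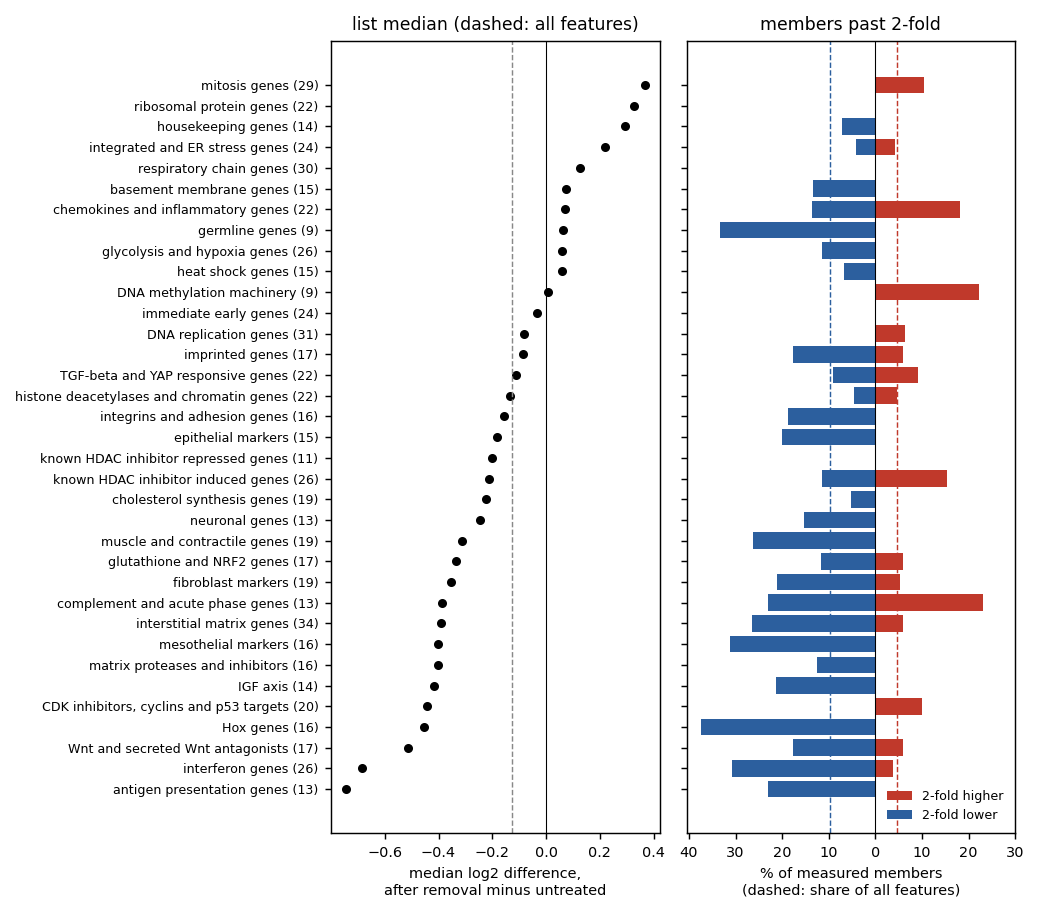
Left, median log2 difference (after removal minus untreated) of each gene list with at least 9 measured members, whose number is in brackets. Right, the percentage of those members at least 2-fold higher (red, to the right) or lower (blue, to the left); dashed lines mark all 9390 features (-0.13, 4.65% and 9.67%), and antigen presentation and interferon genes have the lowest medians.

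Mitosis genes had the highest median of the lists. Of 29 measured, 3 were 2-fold higher and none lower, against 4.65% and 9.67% of all features. Above their untreated level lay 23 of the 29, and the median was 0.37 against -0.13 over all features. Tpx2, a spindle assembly factor gene, read 760.8 after removal and 294.8 untreated (1.33), with its other probe set at 0.28. Mki67, the Ki-67 proliferation antigen gene, read 679.8 and 309.0 (1.11), and the kinetochore motor gene Cenpe read 70.9 and 22.3 (1.29). Cenpe passed the filter only through the after-removal array, and without it 2 of 28 were higher and the median was 0.34. Cdk1, the mitotic kinase gene, was not among them, at 1067.7 after removal and 1241.1 untreated. DNA replication genes had 2 of 31 higher (Gins1 and Pola1), none lower and a median of -0.08. Pola1 was 1 of 2 members that passed the filter only through the after-removal array, and without them 1 of 29 was higher. Among 20 cell-cycle inhibitors, cyclins and p53 target genes 2 were 2-fold higher, Gadd45a and the pro-apoptotic gene Pmaip1 (141.4 after removal, 59.3 untreated). None were lower by 2-fold, although their median was -0.44.

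Of 17 measured imprinted genes 3 were 2-fold lower and 1 was higher, against 9.67% and 4.65% of all features. Their median was -0.09, and 0.03 after the loess correction. Dlk1, a paternally expressed Notch-like gene, read 42.8 after removal and 292.8 untreated (-2.49), with 220.3 and 224.8 under TSA and 913.7 to 989.6 on the p53-/- arrays. The after-removal array was the lowest of all. Mest, also paternally expressed, read 395.6 after removal and 1012.4 untreated (-1.33), and Igf2, a fetal growth factor gene, read 22.8 and 66.2 (-1.18). Peg3, another paternally expressed gene, read 1051.6 after removal and 958.5 untreated, and Ndn read 63.2 and 69.6. The imprinted genes therefore did not share a direction.

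The DNA methylation machinery held 2 genes of 9 that were 2-fold higher and none lower, against 4.65% and 9.67% of all features. Mbd4 passed the filter only through the after-removal array, and without it 1 of 8 was higher and the median was -0.12 rather than 0.01. Mbd4, a glycosylase that repairs deaminated methyl-CG, read 143.8 after removal and 37.7 untreated (1.66), and the remodeller gene Hells, which is needed for normal methylation, read 497.8 and 221.4 (1.13). The de novo methyltransferase genes Dnmt3a and Dnmt3b read 93.2 and 55.1 after removal, against 113.0 and 34.1 untreated. Among 22 histone deacetylase and chromatin genes, Suz12 of the Polycomb complex was higher (432.9 after removal, 178.6 untreated, other probe sets 1.38 and 1.40) and Cbx3, a heterochromatin protein gene, was lower (13.9 and 45.4). Cbx3 was dim, at 38.1 to 63.3 on the arrays not compared. Its difference of -1.17 was -0.61 with the offset at the pooled median and -0.76 after the loess correction. Hdac1 read 508.5 after removal and 551.8 untreated. Of 16 Hox genes, which specify position along the body axis, 6 were 2-fold lower and none higher, against 9.67% and 4.65% of all features. All 6 had signals of 72.0 or less on the compared arrays. Hoxc9 passed the filter only through the untreated array, and without it 5 of 15 were lower. Hoxa9 read 12.6 after removal and 72.0 untreated, though its other measured probe set differed by -0.02.

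Among secreted regulators, 3 of 17 Wnt genes were 2-fold lower and 1 higher, against 9.67% and 4.65% of all features. The Wnt median was -0.51, and -0.09 with no filter. Wnt7b read 35.3 after removal and 122.9 untreated, and Wnt10a read 319.3 and 146.9. Of 14 genes of the insulin-like growth factor axis 3 were lower and none higher, and Igfbp6 read 641.3 after removal and 1940.0 untreated (-1.58). In the TGF-beta and YAP list 2 of 22 were higher and 2 lower, the latter near the 9.67% of all features. Smad7, an inhibitor of TGF-beta signalling, read 95.3 after removal and 246.1 untreated, while Crim1 read 497.6 and 149.0. Of 16 integrin and adhesion genes 3 were lower, Thy1, Cdh3 (P-cadherin, 123.6 after removal, 330.3 untreated) and Cdh11 (56.5 and 174.8), and none were higher.

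Few genes of metabolism, stress and protein synthesis were past 2-fold, where 4.65% of all features were higher and 9.67% lower. None of 22 ribosomal protein genes and none of 30 respiratory chain genes passed 2-fold. The ribosomal median was 0.33 as deposited but 0.03 under quantile normalization and 0.09 after the loess correction. Of 24 stress-response genes 1 was higher, the endoplasmic reticulum chaperone gene Pdia4 (557.9 after removal, 186.4 untreated), and 1 was lower, the stress transcription factor gene Xbp1 (413.9 and 1089.3). The 3 other Xbp1 probe sets differed by -0.56 to -0.30, so its 2-fold difference rests on 1 of 4 probe sets. Hmox1, heme oxygenase 1, read 93.6 after removal and 298.3 untreated (-1.56) and was the 1 heat shock list member of 15 past 2-fold. Of 26 glycolysis and hypoxia genes 3 were lower (Car9, Slc16a3 and Ndrg1) and none higher, and the median over the Ndrg1 probe sets was -0.48. The cholesterol synthesis list had 1 of 19 lower (Hsd17b7), the glutathione and NRF2 list had 1 of 17 higher (Gclc) and 2 lower, and none of 24 immediate early genes passed 2-fold. Hsd17b7 differed by -1.39, but its other probe set differed by 0.28, in the opposite direction. Gclc differed by 1.29 and its other probe set by 0.30. Among 14 housekeeping genes Polr2a, the largest subunit of RNA polymerase II, stood out at 220.1 after removal and 958.8 untreated (-2.07), with its other probe set at -1.61. Actb, beta-actin, read 7485.6 after removal and 5199.5 untreated, and its dim second probe set read 88.4 and 147.1.

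The differences varied with how densely genes lie. Genes were ordered by the number of protein-coding genes within 500 kb on either side in the RefSeq gene table. In the 1 of 4 equal bins with the fewest neighbours (median 5) 7.33% of genes were 2-fold higher and 6.51% lower, and the median difference was 0.05. In the bin with the most (median 37) 1.31% were higher and 14.2% lower, and the median was -0.37. Genes 2-fold higher had a median of 9 neighbours and genes 2-fold lower had 20, against 15 over 8236 genes. Spearman's rho between the difference and the neighbour count was -0.25 across genes, which share arrays and chromosomal domains. This was not particular to the comparison, since rho ranged in size from 0.014 to 0.27 over the 15 pairs of arrays without the after-removal array.

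**Figure D5:**
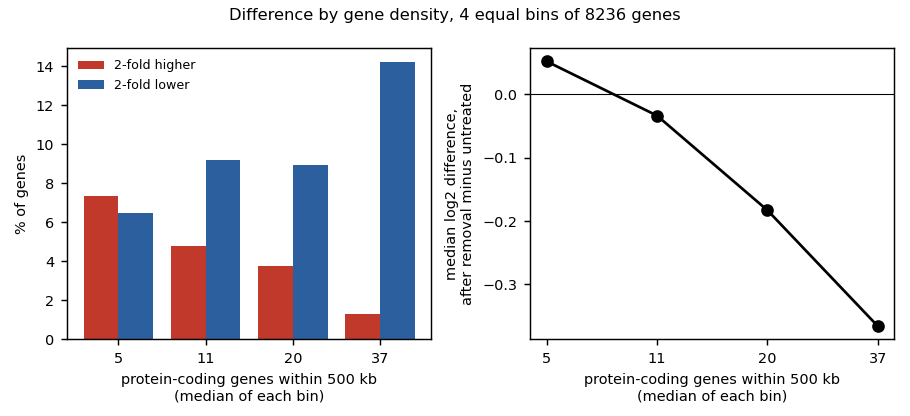
Share of genes at least 2-fold higher (red) or lower (blue) after removal, left, and median log2 difference, after removal minus untreated, right, in 4 equal bins of 8236 genes ordered by the number of protein-coding genes within 500 kb (median of each bin on the horizontal axis). The share of lower genes is 6.51% in the sparsest bin and 14.2% in the densest.

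By chromosome the median difference was lowest on chromosome 7 (-0.34, 83 of 589 genes 2-fold lower) and on chromosome 10 (-0.30), and highest on chromosome 13 (0.08, 27 of 294 genes 2-fold higher). The lowest run of 31 neighbouring genes lay on chromosome 7 from Pou2f2 to Dyrk1b, with a median of -0.82 and 13 genes lower. For untreated p53-/- Dnmt1-/- minus untreated p53-/- cells, the medians were -0.24 on chromosome 7 and -0.32 on chromosome 10. In that comparison they ran from -0.40 on X to 0.35 on chromosome 19. For 24 h of TSA minus untreated in p53-/- Dnmt1-/- cells they were -0.04 on chromosome 7 and -0.02 on chromosome 10. Higher genes also spanned more sequence, with a median of 31699 bp against 18000 bp for lower genes and 21897 bp for all. Promoter windows of higher genes held a median of 24 CG, those of lower genes 17 and those of all measured genes 22. Copy number was not measured.

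Beyond Malat1, the limma fit gave 1676 features at an unadjusted p under 0.05 (17.8%), 541 higher and 1135 lower, where 469.5 would be expected with no change. The 469.5 holds only if the compared arrays vary like the 24 h and 48 h arrays of each genotype. That was not tested, and the after-removal array stood apart from all others, so the excess is no count of changed genes. The median standard error of a difference was 0.38 on the log2 scale.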

How the data were processed

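RNA from 7 cell samples, 1 per group, was measured on Affymetrix arrays. The RNA was total RNA extracted with TriZol, per the labels' protocols. The deposited values are linear signal intensities that the authors made with MAS5, per the submitters' processing notes. The MAS5 version and target value are not stated in the sources used here. These deposited intensity values had a 2% trimmed mean of 150 on every array, so the authors had scaled the arrays.

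An annotation table of the array listed 21084 of 22690 probe sets, 20393 with 1 gene symbol and 691 with several, and 1606 were not listed. Symbols of 20364 were updated through Entrez identifiers to a RefSeq table (GRCm38.p6). Probe sets with several symbols named no gene. A gene was represented by the probe set whose mean log2 value was highest, 64 control probe sets were left out, and the filter was a signal above the pooled median of 45.6 on at least 1 array. The offset of 11.4 was the pooled 25th percentile. Neighbour counts, gene spans and promoters came from RefSeq tables of GRCm38.p6, of which 3 of 4 promoters looked up were present, and Piwil2 was not.

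With 1 array a side, a difference was described by size (2-fold). limma 3.58.1 in R 4.3.3 used an intensity trend, Benjamini-Hochberg adjustment at 0.05 and 5 groups, with 24 h and 48 h of TSA pooled within a genotype. The limma step was tested on simulated data. The number of arrays limits the precision. The p-values rest on the spread between the 24 h and 48 h arrays of each genotype. That spread holds the time difference as well as noise, which may be technical. The compared arrays add nothing to it.

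Genes named were the 15 largest in each direction among those past 2-fold with a signal of at least 100 on the brighter array and all further measured probe sets of the same sign, the up to 4 furthest members past 2-fold of each of 40 lists, and a fixed set of marker and TSA-responsive genes. Other list members are named to show level or dim genes, and were chosen after their values were seen. The comparison, the lists and the fixed genes were chosen with earlier results of these data known.

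Alternatives changed the offset, the filter, the normalization, the choice of probe set, the fold and the limma settings.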

Additional observations from a re-analysis of the deposited data

How the results depend on the processing

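The number of features higher and lower after removal moved by over 1.5 times with several choices. With the offset at the pooled median there were 209 higher and 315 lower, and at a 3-fold rule 71 and 187. The loess correction gave 656 and 567, and counting every probe set on its own gave 943 and 1183. With no filter there were 573 and 1370, and with a signal above 100 on 1 of the 2 arrays 328 and 466. Leaving out features that passed the filter through 1 compared array alone, chosen after seeing the data, gave 389 and 847. Higher features were 32.5% of those past 2-fold as reported, 27.5% at 3-fold, 29.5% with no filter, 32.3% with the offset at the pooled 10th percentile, 39.9% with the offset at the pooled median, 39.8% under quantile normalization, 41.3% with a signal above 100, 44.4% counting every probe set, 49.1% after centring and 53.6% after loess; the cause was not tested. limma made 1 call as reported, 1 with the offset at the pooled median and 1 on the 4 p53-/- Dnmt1-/- arrays alone, and Malat1 was the call each time. It made 0 calls with no filter (lowest adjusted p = 0.195, 2612 features at an unadjusted p under 0.05), 0 under quantile normalization (0.05002, 1552 features) and 0 without the intensity trend (0.0730, 1633 features).

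Of the 124 genes named by rule, none past 2-fold changed sign under these alternatives. Of those within 2-fold, Prph and Usp18 had 0.16 and 0.12 after loess, against -0.25 and -0.26 as reported, and with the median of the probe sets Actb had -0.07 and Xist 0.49, against 0.52 and -0.74. With the offset at the pooled median 38 came under 2-fold, after loess 16, with the median of a gene's probe sets 10, and under quantile normalization 1. List medians changed sign for 4 of 39 lists after loess, 2 with no filter, 1 with the offset at the pooled median and 1 under quantile normalization. The 145 features higher with TSA in p53-/- cells had medians from -0.06 to 0.10 over the alternatives.

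No paired analysis was possible because each group held 1 array. Leaving out a replicate was likewise impossible with 1 array a group. Dim signals limit many interferon, Hox and neuronal genes, and the unrepeated after-removal array, which lay beyond all others for many features, limits every result.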

Other observations

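Some of the genes that differed most belong to groups outside the lists, and these were chosen after their values were seen. They include several genes of pre-mRNA processing, in both directions, and no share of that group was computed. The splicing factor gene Luc7l3 read 639.1 after removal and 217.1 untreated, with 78.9 to 218.0 on the other 5 arrays, so that the after-removal array was the brightest. Rbm39, an RNA-binding splicing coactivator gene, read 486.7 after removal and 152.3 untreated, and 7 of its 8 other probe sets differed in the same direction. Pnn, which encodes the splicing-associated protein pinin, read 322.6 and 97.2. Scaf11 read 982.8 after removal and 320.2 untreated, and Srek1 read 282.6 and 93.2. Srrm2, a large splicing cofactor gene, had the opposite direction at 39.9 after removal and 191.4 untreated, and was between 126.4 and 192.8 on the other 5 arrays.

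Several tissue-restricted genes had a steady signal on 6 arrays and a lower one after removal. Tcl1b3 read 159.3 after removal and 640.4 untreated, with 506.1 to 575.3 on the other 5 arrays. Tff1, a gastric trefoil peptide gene, read 130.2 after removal and 468.2 untreated, with 391.1 to 437.6 elsewhere. Oxt, the oxytocin gene, read 66.9 after removal and 230.3 untreated, and Kap, a kidney androgen-regulated gene, read 18.6 and 111.0. Each of these 4 signals was lower after removal than on all 6 other arrays, in both genotypes and with or without TSA. The part of hybridisation or background on that array in these values was not tested.

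Xist, the noncoding RNA of X inactivation, read 63.6 after removal and 114.1 untreated, while its other probe set read 118.3 and 27.8, so its direction depended on the probe set. The Y-linked gene Eif2s3y read 56.6 after removal and 26.8 untreated.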
